A study of Mus musculus with 12 samples.

Results

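The replication-dependent histone genes encode the bulk of the H1, H2A, H2B, H3 and H4 proteins that package newly copied DNA. They were taken here as the protein-coding genes named H1f1 to H1f5 or with symbols beginning H2ac, H2bc, H3c or H4c followed by a digit. The rule gave 67 of the 78298 gene identifiers in the deposited table: 5 H1, 18 H2A, 19 H2B, 12 H3 and 13 H4 genes. On the GRCm39 build, 53 lie on chromosome 13, 10 on chromosome 3, 3 on chromosome 11 and 1 on chromosome 6. A further 2 genes matched by symbol but are annotated as pseudogenes and were not included.

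RNA sequencing counts were available for 12 mouse lung libraries in 4 groups of 3: normal adjacent lung under VEH, normal adjacent lung under HDM, LLC tumours under VEH and LLC tumours under HDM. HDM is house dust mite in the series title, and neither VEH nor LLC is spelled out by the labels. No genotype, age, dose or time was given for any group, and no statement that replicates came from separate animals, so p-values measure the spread between these samples. The tumour and normal pieces were cut out by hand from the lung, so each library is a mixture of cells. All 12 libraries carry the same batch label. In such bulk samples, fewer cells of a type and less RNA per cell cannot be told apart.

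Most mRNAs end in a poly(A) tail, but replication-dependent histone mRNAs usually end just after a short stem-loop that binds the protein Slbp. Their transcription and processing rise in S phase, when DNA is copied, and their decay is fast once copying stops. Some of these genes can also give longer, polyadenylated transcripts, which have been described in differentiated cells. A library made by poly(A) selection therefore sees these genes incompletely. The labels name both poly(A) selection and ribosomal RNA depletion without choosing 1 of them.

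The stem-loop is the shared element that sets these transcripts apart, so its forms are shown with 5 bases on either side, stem-loop in capitals, as read from the GRCm39 genome on the strand of each gene.
H1f2: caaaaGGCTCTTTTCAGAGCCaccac
H2ac8: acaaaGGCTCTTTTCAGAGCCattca
H3c3: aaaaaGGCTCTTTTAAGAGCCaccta
H3c8: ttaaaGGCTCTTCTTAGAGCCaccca
H4c8: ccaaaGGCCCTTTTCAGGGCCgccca
H4c9: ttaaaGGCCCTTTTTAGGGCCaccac
A stem-loop of 16 bases was found after the stop codon of 65 of the 67 genes, 24 to 61 bases downstream with a median of 33. There were 8 distinct stem-loops. The form printed for H1f2 was shared by 42 genes of the H1, H2A, H2B and H3 classes, and that of H3c3 by 8 genes. The form of H4c8 was found in 8 H4 genes, and none of the 13 H4 genes had a form seen in another class. No match to the 16-base pattern searched for was found within 300 bases of the stop codon of H2bc21 or H2ac22. A form that departs from that pattern would have been missed.

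The annotated transcripts differ in how far they run past this element, which bears on what could be counted. The annotated exons of 25 genes extended more than 100 bases past the stem-loop, and those of 21 ended within 100 bases of it. For 17 genes the exons ended before the stem-loop (15) or inside it (2). In the last 2, H2bc23 and H2bc24, the stem-loop itself lay outside the exons, which went on more than 100 bases past it. Of all 67, 13 had a deposited length within 10 bases of the coding length alone. H1f2, which encodes a linker histone that sits where DNA enters and leaves the nucleosome, spans chr13:23922791-23924350 on the plus strand. Its exons run 840 bases past its stem-loop. H2bc4, a core H2B gene, spans chr13:23867631-23878163 on the plus strand, with GENCODE exons reaching 2073 bases past the stem-loop. Its GENCODE exons add up to 3088 bases but the deposited length is 1156, so how far the counted model ran is not known.

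Most counts on these genes came from H1f2 and H2bc4, which both have deposited lengths above 1000 bases. All 67 genes together had 63323 counts over the 12 libraries, and 3 of them (H2ac1, H2bc24 and H3c14) had none. H1f2 alone held 54.8% of these counts and H2bc4 24.9%. H2bc21 and H2ac25, both with models above 2000 bases, added 8.4%. The 18 genes with a deposited length above 1000 bases held 93.0% of the counts. Of the 3 genes without a count, H2bc24 has no 150-base stretch that is unique in the genome. H3c14 lies wholly inside the lncRNA Gm20634 on the same strand. Their 0 counts may therefore reflect what could be counted.

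Per kilobase of deposited length, H1f2 had a mean of 71.4 TMM-scaled CPM (a gene's count relative to its library's total, which TMM adjusts for differences in makeup) over the 12 libraries and H2bc4 had 44.3. H2bc21 followed at 4.50, H4c8 at 3.48, H4c9 at 3.31 and H2ac25 at 2.37. The median gene stood at 0.314 CPM per kilobase. With the GENCODE length in place of the deposited one, H2bc4 had 16.6 CPM per kilobase, an alternative chosen after seeing the data, and stayed second to H1f2. Among genes of up to 1000 bases, the median was 0.310 and the highest value 3.48. The median of the 18 genes above 1000 bases was 0.408, so most long genes were not far above the short ones.

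**Figure D1:**
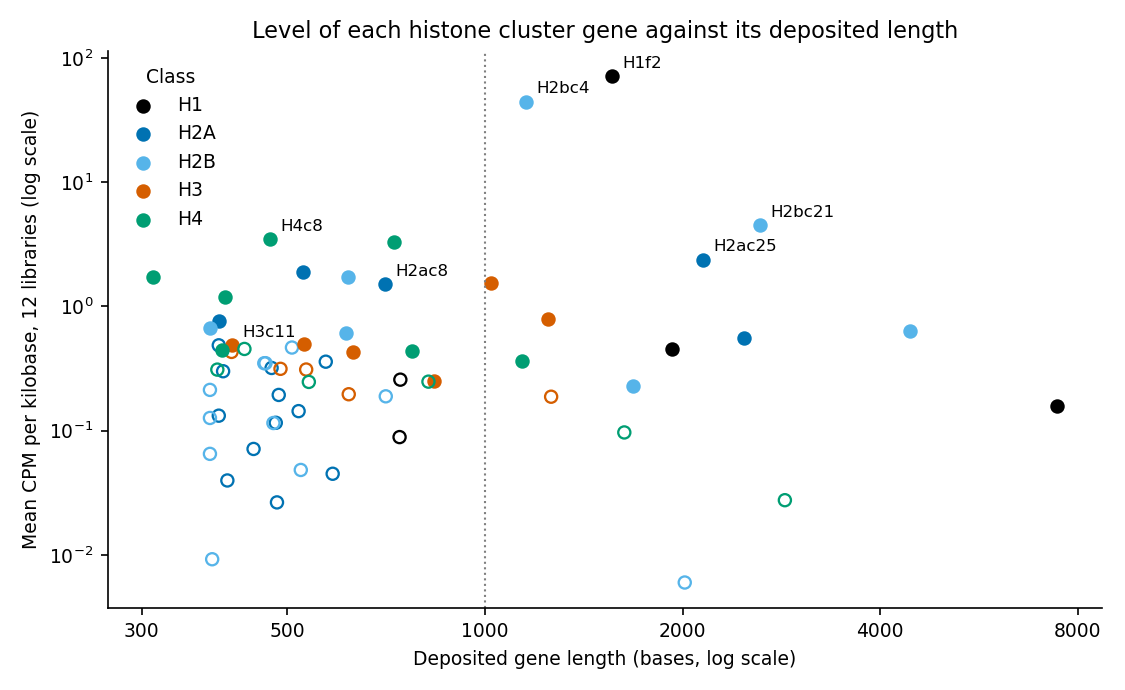
Mean TMM-scaled CPM per kilobase over the 12 libraries (vertical, log scale) against deposited gene length in bases (horizontal, log scale) for the 64 genes with a count, coloured by histone class. Filled points passed the filter on low counts, open points did not, and the dotted line marks 1000 bases. H1f2 at 71.4 and H2bc4 at 44.3 stand above all others.

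Depth and annotation limited what could be measured for the rest. Total counts per library ran from 20608682 to 32765364, of which the 67 genes took 0.0116% to 0.0274%. The filter on low counts kept 28 of the 67 genes. The other 39 had 0 to 76 counts over all 12 libraries and enter mainly through sums. Low counts were mostly even numbers. Of the counts from 1 to 50, 78.9% were even for the 67 genes and 69.1% for all genes, so a read pair may often have been counted as 2. Near-identical copies add a further limit: 20 genes had under 50% of their 150-base stretches unique in the genome, and 5 had none, H2ac19 among them. The exons of 33 genes overlap another gene, and the counting is not stated to use strand.

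Other RNAs that lack a poly(A) tail were also scarce. Of 13 named ones, 10 had 0 counts in every library, including Rmrp, Rpph1 and Terc, and 2 had 2 counts each. Only Rn7sk, a nuclear RNA that holds back transcription elongation, was counted in each library, with 14 to 316 counts. Genes of the small nuclear, small nucleolar and small Cajal body classes took 0.00133% to 0.00397% of counts, and ribosomal RNA genes 0.263% to 1.06%. Reads from multi-copy genes can be lost in counting, and the part of the selection step in these values was not tested.

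The first comparison asked whether the tumours held more of these transcripts than the normal lung beside them. Summed over all 67 genes, they did not stand clearly apart. Normal VEH libraries had 246, 178 and 229 CPM and tumour VEH libraries 245, 272 and 243. Normal HDM libraries had 134, 174 and 163 CPM and tumour HDM libraries 237, 215 and 106. Both pairs of groups overlapped. The means were 218 ± 35.2 and 253 ± 16.6 CPM under VEH, and 157 ± 20.4 and 186 ± 70.3 under HDM (SD, n = 3).

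Splitting the genes by model length gave different pictures. This is not a split by where the exons end relative to the stem-loop. Among genes of up to 1000 bases, the exons of H2ac8, H2bc8 and H4c9 run 151, 155 and 330 bases past it. The 49 genes with lengths up to 1000 bases summed to 11.7, 9.03 and 11.8 CPM in normal VEH and to 19.9, 36.7 and 16.01 in tumour VEH. Under HDM they summed to 8.03, 9.25 and 7.70 in normal tissue and to 15.2, 11.3 and 12.2 in tumours. Every tumour library was above every normal library of its treatment. Group means were 10.9 ± 1.58 against 24.2 ± 11 CPM under VEH and 8.33 ± 0.818 against 12.9 ± 2.07 under HDM, ratios of 2.23 and 1.55. Tumour VEH replicate 2 carries much of the first difference, and without it the tumour VEH mean was 17.95 CPM. The 18 longer genes had means of 207 ± 33.6 and 229 ± 5.82 CPM under VEH, and 149 ± 19.98 and 173 ± 69.4 under HDM, with overlap in both.

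**Figure D2:**
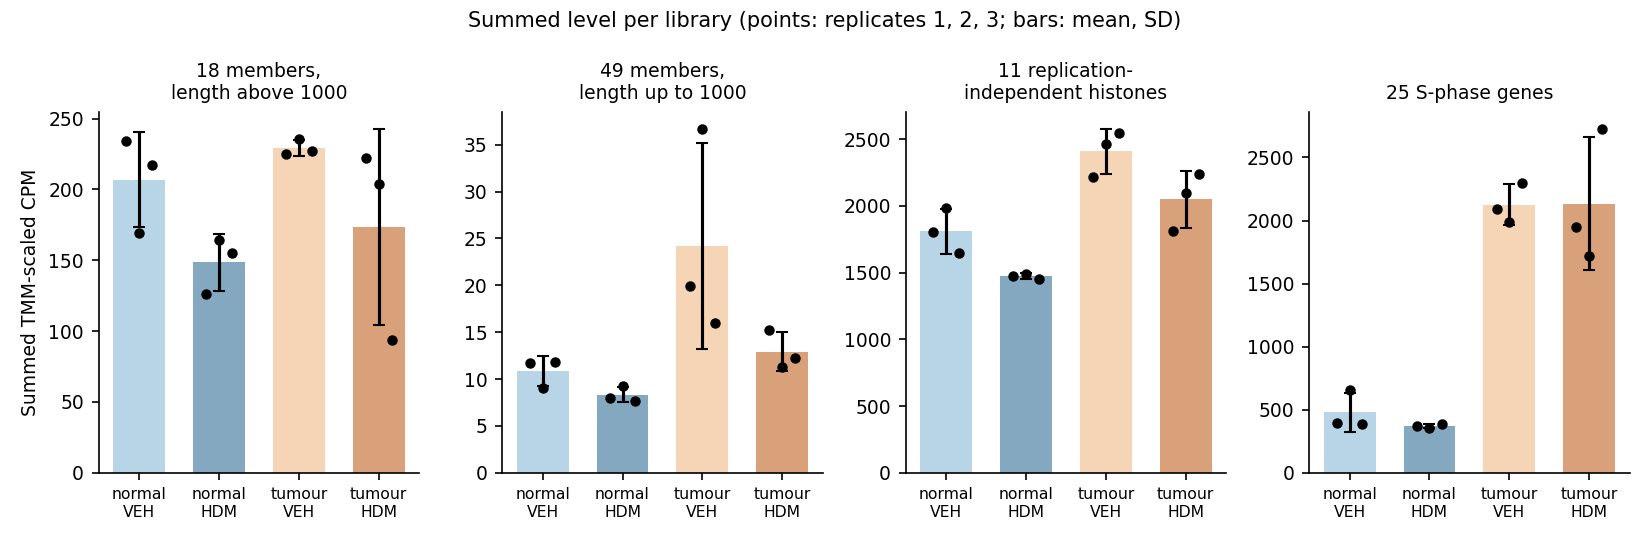
Summed TMM-scaled CPM per library (vertical axes, linear, from 0) in the 4 groups, for the histone cluster genes above and up to 1000 bases, the replication-independent histones and the S-phase genes. Bars are means with SD and points are the 3 libraries; tumours lie above normals of the same treatment without overlap in every panel but the first.

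Genes of DNA replication set the scale for this comparison. The 25 S-phase genes, among them Pcna, the sliding clamp of DNA polymerase, and Mcm2, a part of the replicative helicase, summed to 353 to 653 CPM in normal libraries. In tumours they summed to 1721 to 2728 CPM. The ratio of means was 4.45 under VEH and 5.78 under HDM. Markers of lung epithelium moved the other way: the 6 alveolar markers summed to 16940 to 42350 CPM in normal libraries and 38.0 to 8429 in tumours, with none at 0 in any library. The 4 airway markers summed to 24600 to 112700 CPM and 3.52 to 19280 CPM. Tumour VEH replicate 2 had the most of both among tumours and tumour HDM replicate 3 the least. Other cell types differed too. The endothelial markers summed to 895 to 1976 CPM in normal libraries and 72.5 to 363 in tumours, with ratios of means of 0.166 under VEH and 0.0699 under HDM. Summed fibroblast markers were higher in tumours without overlap, with ratios of 1.82 and 3.1. So were summed macrophage markers, with ratios of 3.44 and 1.98. Single markers differed in direction. Under each treatment, 2 of the 4 fibroblast and 3 of the 4 macrophage markers had a positive log2 fold change. Cardiac muscle markers summed to 5.35 to 268 CPM in normal libraries and 0.0607 to 9.04 in tumours, with ratios of 0.167 and 0.0178. The part of cell makeup in the histone values was not tested.

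Gene by gene, few of the 28 tested histone genes passed the threshold, an adjusted p below 0.05 in edgeR's quasi-likelihood test over all 22190 genes tested. Under VEH, 2 were higher in tumours (H2ac8 and H3c11) and none lower, where 18.2% of all genes tested were higher and 20.6% lower. An unadjusted p below 0.05 was found for 11055 of the 22190 genes tested in this comparison and for 8 of the 28. DESeq2's Wald test called 6 higher and 1 lower, where it called 20.5% of all genes higher and 26.4% lower. Under HDM, 4 were higher (H3c3, H3c4, H3c8 and H4c9) and 1 lower (H4c8), where 23% of all genes tested were higher and 28.9% lower. The Wald test called 6 higher and 2 lower there, against 23.4% and 32.7% of all genes. Both shares of higher genes by edgeR's test, 2 and 4 of 28, were below the background. With a block for the prefix of the library names, H2ac8 alone was called higher under VEH and H3c4 alone under HDM. Without the 4 libraries whose prefixes conflict with their treatment labels, none of H3c3, H3c4, H3c8 and H4c9 was called.

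The median log2 fold change of the 28 was 0.83 under VEH and 0.71 under HDM, while all genes tested had medians of -0.11 and -0.08. Scaling to library size alone moved the latter to 0.03 and 0.10. With genes absent from a group set at their bound, the medians of the 28 stayed at 0.83 and 0.71. These genes passed the filter partly through the groups where they were high. By pooled counts of all 67 genes, 47 were higher and 11 lower in tumours under VEH, and 46 were higher and 12 lower under HDM. The other 9 genes in each comparison had at most 3 counts in both groups. Groups did not overlap for 10 higher and 1 lower of the 28 under VEH, where 23.9% and 28.5% of all genes tested did so. Under HDM they did not overlap for 8 higher and 3 lower, where the background was 29.6% and 33.5%.

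**Figure D3:**
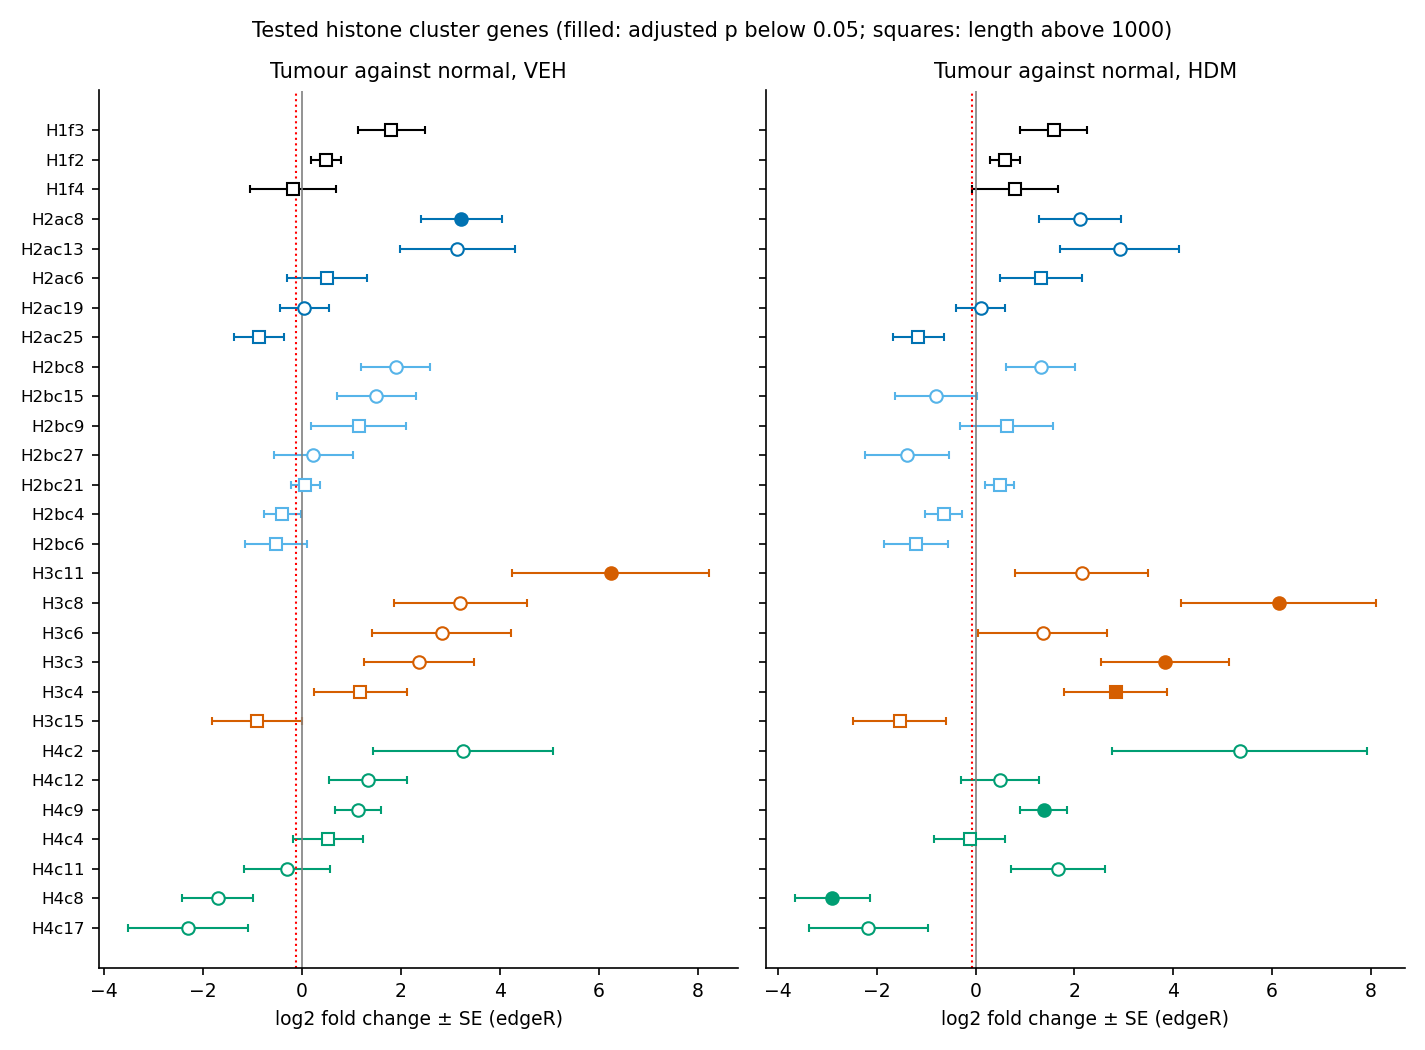
The log2 fold change in tumours against normal tissue (horizontal, ± SE, edgeR) of the 28 tested genes under VEH (left) and HDM (right), ordered by class. Filled symbols have an adjusted p below 0.05, squares have lengths above 1000 bases and the red dotted line is the median of all genes tested; the fitted values of H3c11 under VEH and of H3c8 and H4c2 under HDM depend on the fit's prior because the normal group had no count.

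Among the linker histones, H1f2 gave the most precise values. Its level was 111, 116 and 84.6 CPM in normal VEH and 150, 129 and 156 in tumour VEH. Under HDM it was 78.1, 85.1 and 72.7 CPM in normal tissue and 152, 146 and 55.98 in tumours. All tumour VEH libraries were above all normal VEH libraries, but tumour HDM replicate 3 fell below every normal library. The log2 fold change was 0.48 ± 0.30 under VEH (edgeR quasi-likelihood adjusted p = 0.216) and 0.59 ± 0.30 under HDM (adjusted p = 0.126), so neither passed.

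Tumour HDM replicate 3 decided the outcome for H1f2. Without it, the log2 fold change was 1.07 under HDM (edgeR quasi-likelihood adjusted p = 0.00131) and 0.58 under VEH (adjusted p = 0.0156). The S-phase sum of that library, 2728 CPM, was the highest of all 12. Its T and NK cell markers summed to 0.849 CPM, against 10.4 and 11.3 in the other tumour HDM libraries and 24.95 to 48.8 in tumour VEH. Whether its makeup bears on H1f2 was not tested.

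The other linker genes were scarce. H1f3 was at 0.657, 0.755 and 0.337 CPM in normal VEH and 2.55, 1.52 and 2.12 in tumour VEH, with no overlap. Under HDM it was at 0.246, 0.604 and 0.700 in normal tissue and 3.12, 1.02 and 0.546 in tumours, with overlap. Its adjusted p values in edgeR's quasi-likelihood test were 0.0547 under VEH and 0.0717 under HDM. H1f4 overlapped in both comparisons, with log2 fold changes of -0.18 ± 0.86 and 0.80 ± 0.88. H1f5 did not pass the filter: it had 4 counts in 1 of the 6 normal libraries and none in the others, and 3 to 22 counts in every tumour library.

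In the H2A class, H2ac8 rose in tumours under VEH. It lies on the minus strand at chr13:23754691-23755394. It stood at 0.246, 0.441 and 0.253 CPM in normal VEH and 2.80, 3.72 and 2.40 in tumour VEH. Under HDM it stood at 0.164, 0.378 and 0 in normal tissue and 1.11, 0.478 and 0.789 in tumours. Neither treatment showed overlap between tumour and normal. The log2 fold change was 3.22 ± 0.82 under VEH (edgeR quasi-likelihood adjusted p = 0.0116) and 2.10 ± 0.83 under HDM (adjusted p = 0.0532). The VEH call held in all 12 fits that left out a library. About 75.5% of the 150-base stretches of H2ac8 are unique, and an annotated miRNA overlaps 138 bases of it on the other strand.

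H2ac8 shares its upstream region with H2bc8, an H2B gene on the opposite strand, and the stretch between their RefSeq starts is 179 bases long. This region is shown because both genes were higher in tumours on average. It is chr13:23571221-23571399 of GRCm38.p6 (RefSeq), plus strand, with the TATA box TATAAA, the CCAAT box (also as its reverse complement) and the octamer ATTTGCAT in capitals.
H2ac8 to H2bc8: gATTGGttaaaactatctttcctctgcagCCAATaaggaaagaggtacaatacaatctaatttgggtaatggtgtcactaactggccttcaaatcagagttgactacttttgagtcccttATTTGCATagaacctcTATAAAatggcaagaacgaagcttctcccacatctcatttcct
RefSeq promoters, 250 bases before to 50 after a start, were found for 57 of the 67 genes, 58 promoters in all. On either strand, TATAAA was found in 58.6% of them and in 13.6% of all 32851 mouse promoters of the same length. CCAAT was found in 86.2% against 37.4%. It was in every matched H1, H2A, H2B and H3 promoter but in 27.3% of the H4 ones. ATTTGCAT was found in 22.4% against 1.7%, in 46.7% of H2B and 35.3% of H2A promoters and in none of the other classes. These matches are letters in a window and say nothing of which factor was bound. Windows of divergent pairs such as H2ac8 and H2bc8 overlap, so the same match can be counted for both genes.

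H2bc8 stood at 0.329, 0.598 and 0.547 CPM in normal VEH and 1.91, 2.23 and 1.38 in tumour VEH. Under HDM it stood at 1.15, 0.340 and 0.184 in normal tissue and 1.81, 1.81 and 0.546 in tumours. The VEH groups did not overlap and the HDM groups did. Its log2 fold changes of 1.89 ± 0.70 and 1.31 ± 0.69 had adjusted p values of 0.0528 and 0.134 in edgeR's quasi-likelihood test, so neither passed.

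The other tested H2A genes did not pass in either comparison. H2ac13 had 0, 0.126 and 0.0842 CPM in normal VEH and 0.382, 1.26 and 0.369 in tumour VEH, with an adjusted p of 0.0533 in edgeR's quasi-likelihood test. H2ac25 on chromosome 11 had lower means in tumours, with 13.4, 3.40 and 7.96 CPM in normal VEH and 3.74, 6.88 and 2.91 in tumour VEH. Under HDM it had 3.32, 4.95 and 7.51 CPM in normal tissue and 1.93, 2.77 and 2.34 in tumours, without overlap. Its adjusted p under HDM was 0.0807 by edgeR's quasi-likelihood test. H2ac25 shares 1531 exonic bases with Trim17 on the same strand, so its counts are uncertain. H2ac6 overlapped in both comparisons. H2ac19, which has no unique 150-base stretch and lies wholly inside the lncRNA Gm20632 on the other strand, stayed between 0.546 and 1.56 CPM in all 12 libraries.

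In the H2B class the most abundant gene, H2bc4, had lower means in tumours that did not pass the test. It had 76.7, 39.2 and 101 CPM in normal VEH and 51.3, 68.0 and 46.0 in tumour VEH. Under HDM it had 32.3, 52.4 and 57.0 in normal tissue and 40.3, 32.3 and 17.9 in tumours. Groups overlapped in both comparisons, with log2 fold changes of -0.39 ± 0.38 and -0.65 ± 0.38 that did not pass. H2bc4 shares 301 exonic bases with H2ac6 on the other strand.

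H2bc21, 1 of the 2 genes with no match to the stem-loop pattern, ranged from 7.11 to 15.4 CPM over all libraries. Its log2 fold changes were 0.07 ± 0.29 and 0.49 ± 0.29. H2bc6 had 6.57, 1.32 and 4.42 CPM in normal VEH and 1.61, 4.80 and 2.12 in tumour VEH, with overlap under HDM as well. H2bc9, H2bc15 and H2bc27 also failed to pass in either comparison. Over the H2B class, 5 of 7 tested genes had a positive log2 fold change under VEH and 3 of 7 under HDM.

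The H3 class held 4 of the 6 genes called higher in the 2 comparisons. All 4 were rare, with 64 to 300 counts over the 12 libraries. H3c11 had 0 counts in all 3 normal VEH libraries and 10, 12 and 4 in tumour VEH. Against a floor of 3 counts over the group, it was at least 9.60-fold higher in tumours (edgeR quasi-likelihood adjusted p = 0.0355). Under HDM it had 6, 0 and 0 counts in normal tissue and 12, 2 and 18 in tumours, which overlapped (adjusted p = 0.211). If read pairs were counted as 2, the bound would be 4.80. With halved counts H3c11 no longer passed the filter, and its VEH call was also lost with the prefix block (edgeR quasi-likelihood adjusted p = 0.124) and without the 4 libraries of conflicting prefixes (adjusted p = 0.078). The call held in 5 of the 12 fits that left out a library, and was lost without any 1 of the 6 VEH libraries or without tumour HDM replicate 1. Only 47.3% of its 150-base stretches are unique.

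H3c8, which like H4c1 and H2ac20 has a stem-loop form of its own, had 0 counts in all 3 normal HDM libraries and 12, 12 and 3 in tumour HDM. It was at least 8.11-fold higher there by the same floor (edgeR quasi-likelihood adjusted p = 0.0278). Under VEH it had 0, 6 and 0 counts in normal tissue and 12, 35 and 4 in tumours, with overlap (adjusted p = 0.0876). The bound would be 4.06 if pairs were counted as 2, and with halved counts H3c8 no longer passed the filter. The HDM call was lost with the prefix block (edgeR quasi-likelihood adjusted p = 0.156) and without the 4 libraries of conflicting prefixes (adjusted p = 0.0796). It was also lost without any 1 of the normal HDM libraries and without tumour HDM replicate 1 or 2.

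H3c3 had 2, 0 and 0 counts in normal HDM and 10, 10 and 18 in tumour HDM. The ratio of pooled levels was 17.1, with a 95% interval of 4.43 to 147 that covers counting error only (edgeR quasi-likelihood adjusted p = 0.0291). Under VEH it had 0, 4 and 4 counts in normal tissue and 4, 28 and 8 in tumours, and did not pass (adjusted p = 0.112). With halved counts H3c3 no longer passed the filter. The HDM call was lost with no filter, with a block for replicate number or prefix, and without the 4 libraries of conflicting prefixes, at edgeR quasi-likelihood adjusted p values of 0.0603, 0.0553, 0.078 and 0.146. It was also lost without normal HDM replicate 2 or 3 and without tumour HDM replicate 1 or 3. H3c3 overlaps H2bc3 by 28 bases on the other strand.

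H3c4 is the 1 called gene with a length above 1000 bases, at 1249. It had 0, 0.189 and 0.295 CPM in normal HDM and 2.09, 1.20 and 0.303 in tumour HDM, a log2 fold change of 2.83 ± 1.04 (edgeR quasi-likelihood adjusted p = 0.0403). The lowest tumour value, in replicate 3, was just above the highest normal value. Under VEH it had 1.40, 0.252 and 0.716 CPM in normal tissue and 1.06, 2.79 and 1.48 in tumours, which overlapped (adjusted p = 0.328). The HDM call was lost with a replicate block (edgeR quasi-likelihood adjusted p = 0.0939) and without the 4 libraries of conflicting prefixes (adjusted p = 0.0823). It was also lost without normal VEH replicate 3, normal HDM replicate 1 or 2, or tumour HDM replicate 1 or 2. H3c15 had a lower mean in tumours, from 5.26, 0.252 and 2.40 CPM in normal VEH to 1.02, 1.97 and 1.20 in tumour VEH, and did not pass.

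**Figure D4:**
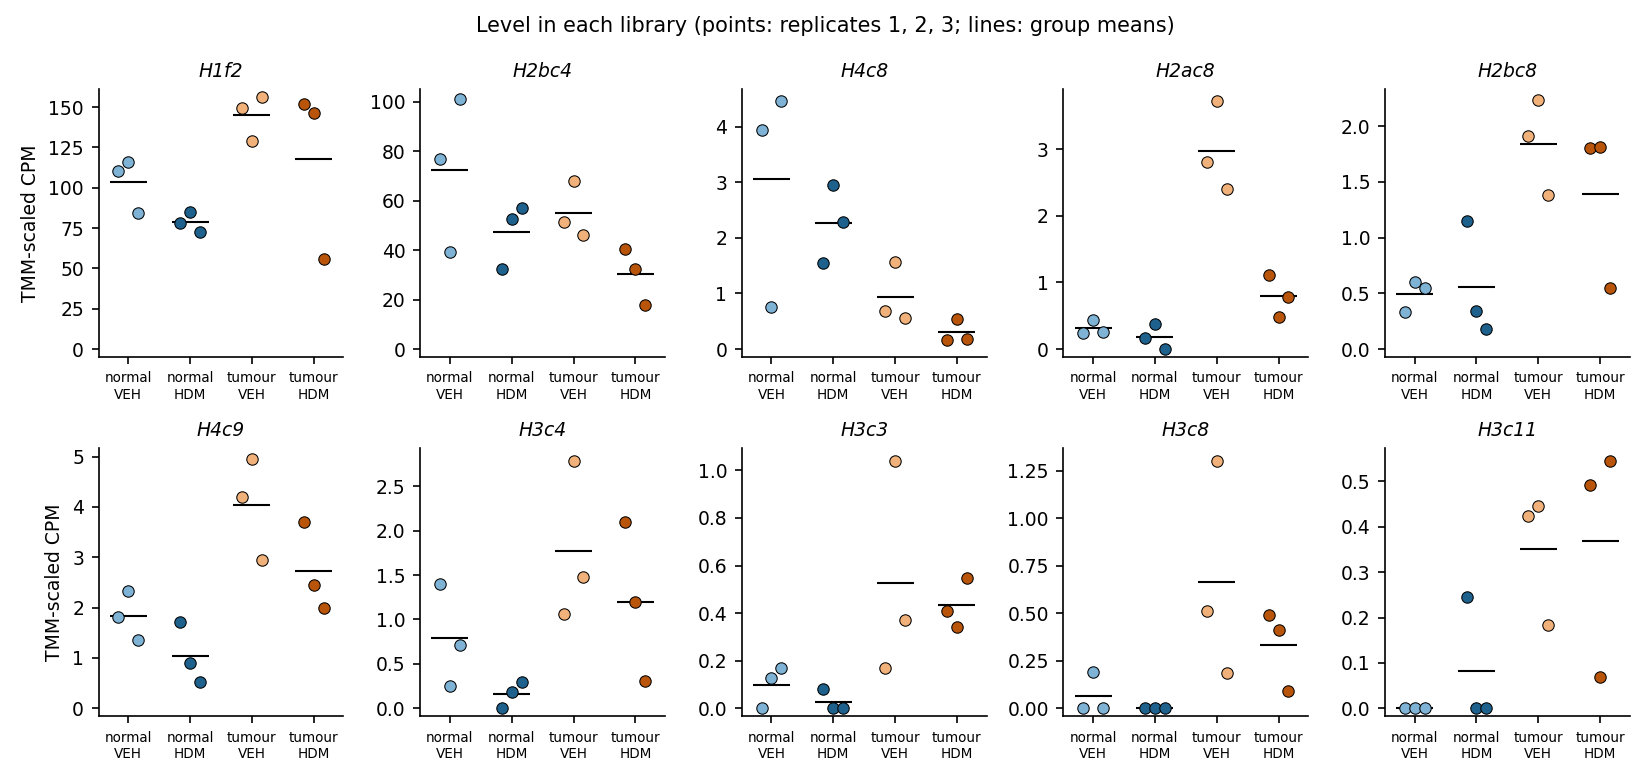
TMM-scaled CPM (vertical axes, linear) of 10 histone cluster genes in each of the 12 libraries, by group; points are replicates and lines are group means. H2ac8 and H4c9 were higher in every tumour library than in every normal library of the same treatment, H4c8 was lower in tumours under HDM, and tumour HDM replicate 3 was the lowest library for H1f2 and H2bc4.

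The H4 class held calls in both directions. H4c9, on the minus strand at chr13:22224806-22225532, had 1.81, 2.33 and 1.35 CPM in normal VEH and 4.21, 4.95 and 2.95 in tumour VEH. Under HDM it had 1.72, 0.906 and 0.516 in normal tissue and 3.70, 2.46 and 2.002 in tumours. Tumours and normals did not overlap under either treatment. The log2 fold change was 1.37 ± 0.48 under HDM (edgeR quasi-likelihood adjusted p = 0.0324) and 1.14 ± 0.47 under VEH (adjusted p = 0.0754). The HDM call was lost with no filter, with the prefix block and without the 4 libraries of conflicting prefixes, at edgeR quasi-likelihood adjusted p values of 0.0703, 0.171 and 0.125. It was also lost without normal HDM replicate 2 or 3 or tumour HDM replicate 1. Nearly all of the gene can be read uniquely, with 97.9% of its 150-base stretches found once.

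H4c8, on the plus strand at chr13:23715220-23715689, was the only histone cluster gene called lower. It had 1.56, 2.95 and 2.28 CPM in normal HDM and 0.164, 0.547 and 0.182 in tumour HDM, without overlap. The log2 fold change was -2.90 ± 0.76 (edgeR quasi-likelihood adjusted p = 0.00908), and the call held in all 12 fits that left out a library. Under VEH it had 3.94, 0.755 and 4.46 CPM in normal tissue and 0.680, 1.56 and 0.554 in tumours, with overlap through normal VEH replicate 2 (log2 fold change -1.70 ± 0.71, adjusted p = 0.0804). Of its 470 exonic bases, 461 lie on the other strand of the lncRNA Gm11335, which had 492 counts in all against 500 for H4c8. Since the counting is not stated to use strand, the fall cannot be assigned to either gene.

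H4c12 and H4c4 overlapped in both comparisons. H4c12 had 0.164, 0.189 and 0.800 CPM in normal VEH and 0.765, 1.75 and 0.369 in tumour VEH. H4c4 stayed between 0.0629 and 0.692 CPM over all libraries. H4c2 and H4c11 did not pass either, and H4c2 had no count in normal HDM and 18 in tumour HDM, all in 1 library. H4c17, on chromosome 13, had lower means in tumours. It had 1.68, 0.441 and 0.421 CPM in normal VEH and 0.340, 0.0744 and 0.0923 in tumour VEH, without overlap. Under HDM it had 0.573, 1.21 and 0.368 CPM in normal tissue and 0.452, 0.0342 and 0 in tumours, with overlap. Its log2 fold changes of -2.30 ± 1.21 and -2.18 ± 1.21 did not pass, with adjusted p values of 0.148 and 0.151 in edgeR's quasi-likelihood test.

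The next question was whether HDM changed these genes within a tissue. In normal lung, no histone cluster gene and no other gene tested was called in either direction, a background of 0%. At an unadjusted p below 0.05, 1 of the 28 and 1230 of the 22190 genes differed, and DESeq2's Wald test called 0 of the 20 to which it gave an adjusted p, where it called 0.0527% of all genes higher and 0.153% lower. In tumours, again none of the 28 was called by edgeR's quasi-likelihood test, with a background of 0.00901% higher and 0.0856% lower. Unadjusted p values were below 0.05 for 3698 of the 22190 genes tested and for 3 of the 28. These 3 (H2ac8, H2bc4 and H2bc15) were all lower under HDM. DESeq2's Wald test called 1 lower, H2ac8, where it called 1.2% of all genes higher and 4.96% lower.

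Log2 fold changes under HDM were mostly negative in both tissues, without passing the test. Of the 28 genes, 23 had a negative log2 fold change in normal lung and 24 in tumours. Their medians were -0.44 and -0.57, against -0.01 and -0.04 for all genes tested. In normal lung, all 3 summed levels under HDM, at 134 to 174 CPM, lay below the 178 to 246 CPM under VEH. The closest values were 174 in normal HDM replicate 2 and 178 in normal VEH replicate 2. Normal VEH replicate 2 is among the 4 libraries whose prefixes conflict with their treatment labels. So are normal HDM replicate 3, tumour VEH replicate 3 and tumour HDM replicate 2. Cardiac muscle markers in normal lung were higher under HDM without overlap, with means of 178 CPM against 18.5, and their part was not tested. In tumours, the 106 to 237 CPM under HDM lay below the 243 to 272 CPM under VEH. These sums get no test because the genes were chosen with results of these data known.

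In normal lung, 1 of the 28 had all HDM libraries below all VEH libraries and none had them above, where the background was 5.85% lower and 4.47% higher. In tumours, 7 of the 28 were lower without overlap (H2ac8, H2ac25, H2bc4, H2bc15, H3c15, H4c4 and H4c8) and none higher, where 10.7% of all genes tested were lower and 11.3% higher. The tumour VEH libraries here are those of the tumour comparison above. For H2ac8 in tumours, the 1.11, 0.478 and 0.789 CPM under HDM against 2.80, 3.72 and 2.40 under VEH gave a log2 fold change of -1.91 ± 0.77 (edgeR quasi-likelihood adjusted p = 0.258). For H2bc4 the log2 fold change in tumours was -0.87 ± 0.38 (adjusted p = 0.287).

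The S-phase sum in normal lung was also lower under HDM, at 353 to 384 CPM against 395, 653 and 386 CPM under VEH. Only normal VEH replicate 2, at 653 CPM, stood well above the HDM libraries. In tumours the groups overlapped, with means of 2132 ± 528 under HDM and 2127 ± 159 under VEH. Endothelial, T and NK, macrophage and erythroid marker sums were lower in tumours under HDM without overlap. The macrophage sum was lower although 3 of its 4 markers had positive log2 fold changes. In the other lists, 1 of 4 erythroid markers and no endothelial or T and NK marker did. The part of these sums in the histone values was not tested.

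The interaction of tissue and treatment, which asks whether the tumour difference itself differed between HDM and VEH, gave no call for any gene tested, a background of 0% in each direction. The smallest adjusted p over all genes was 0.286 in edgeR's quasi-likelihood test, and none of the 28 had an unadjusted p below 0.05. The different sets of histone genes called under VEH and under HDM are therefore not shown to differ. DESeq2's Wald test called 0 of the histone cluster genes for the interaction as well, where it called 0.17% of all genes higher and 0.852% lower.

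Genes that make histone variants or process, carry and use histones were taken through the same tumour comparisons. Of all 22190 genes tested, 18.2% were higher and 20.6% lower under VEH, and 23% and 28.9% under HDM. The median log2 fold changes of all genes tested were -0.11 and -0.08. Of the 11 replication-independent histones, whose genes lie outside the replication-dependent set, 5 were higher and 1 lower in tumours under VEH, and 4 were higher under HDM. H2ax, the variant phosphorylated at DNA breaks, rose by 2.09 ± 0.23 and 1.57 ± 0.22 on the log2 scale under VEH and HDM. Cenpa, the centromeric H3, rose by 2.68 ± 0.63 and 3.77 ± 0.66, and the linker variant H1f0 by 1.67 ± 0.31 and 1.84 ± 0.31. H2az1 rose in both as well. Macroh2a1 rose and Macroh2a2 fell under VEH, by 0.39 ± 0.10 and 0.94 ± 0.26 on the log2 scale.

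Of 16 genes for transcribing and trimming histone mRNA, 9 were higher in tumours under VEH and 12 under HDM, and none lower. The background was 18.2% higher and 20.6% lower under VEH, and 23% and 28.9% under HDM. Slbp, which binds the stem-loop, rose by 1.12 ± 0.17 in both (edgeR quasi-likelihood adjusted p = 0.00102 and 0.000506). Npat, the cyclin E target that activates histone loci, rose by 0.86 ± 0.18 and 0.95 ± 0.18. Lsm11, a part of the U7 particle that guides the cut, rose by 1.30 ± 0.23 and 0.89 ± 0.23. Eri1, an exonuclease that trims and degrades the 3′ end, rose by 0.96 ± 0.15 and 1.14 ± 0.15. Lsm10, the partner of Lsm11, did not pass in either, at 0.08 ± 0.18 and -0.03 ± 0.18. The median of the list was 0.74 and 0.89.

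Of 21 histone chaperone genes, 16 and 17 were higher and none lower, with a median of 0.74 under each treatment. Asf1b, which hands H3 and H4 to the assembly factors, rose by 2.92 ± 0.48 and 3.30 ± 0.49, and Nasp, which protects soluble H3 and H4, by 1.59 ± 0.29 and 1.55 ± 0.29. Of the 25 S-phase genes, 24 were higher under each treatment, with medians of 2.36 and 2.76. The background for both lists was 18.2% higher and 20.6% lower under VEH, and 23% and 28.9% under HDM. Precision differed between the lists: the standard errors of Slbp and Mcm2 were 0.17 and 0.18 under VEH, and that of H2ac8 was 0.82.

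**Figure D5:**
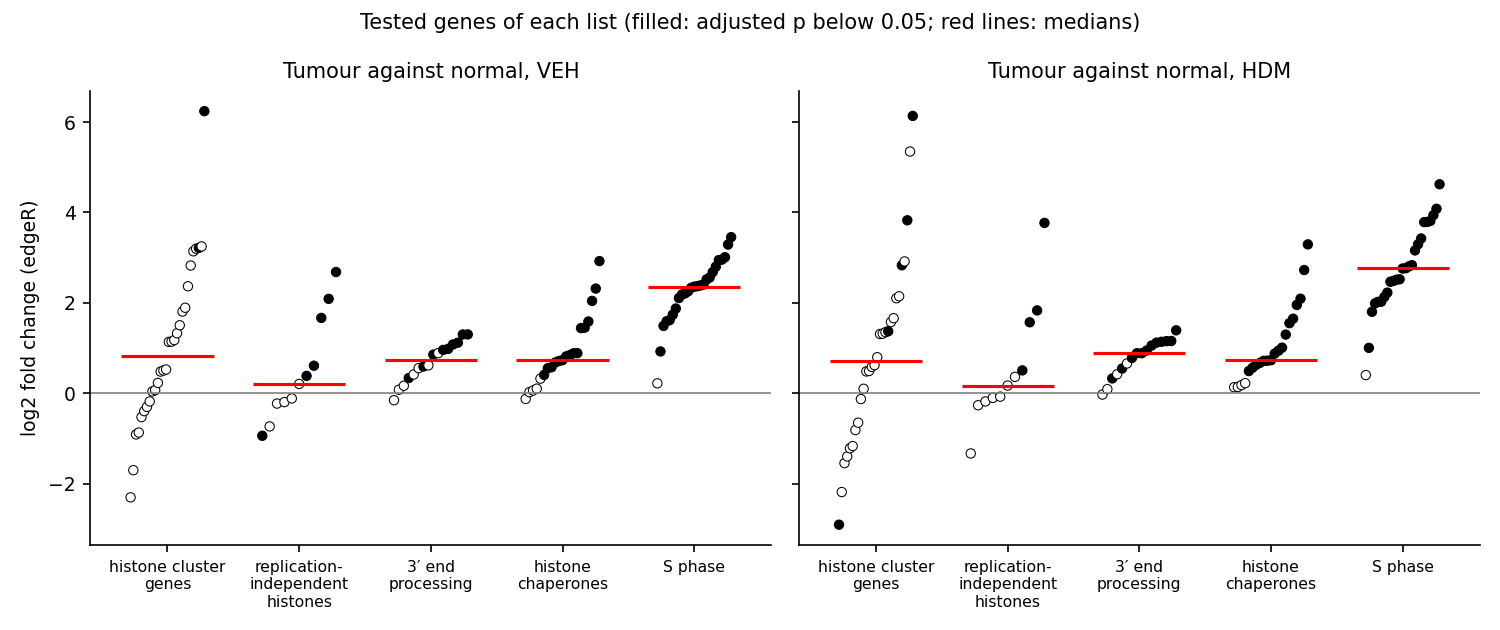
The log2 fold change in tumours against normal tissue (vertical, edgeR) of each tested gene in 5 lists, under VEH (left) and HDM (right), ordered by value within a list. Filled points have an adjusted p below 0.05 and red lines are medians. The histone cluster genes are spread from -2.30 to 6.24 under VEH, and nearly all S-phase genes are filled. The 6.24 is the fitted value of H3c11 and depends on the fit's prior because the normal VEH group had no count.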

How the data were processed

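Raw counts per Ensembl gene in the 12 libraries are as the authors deposited them, with gene lengths. The submitters' processing notes name Trim Galore, STAR, Subread, featureCounts and mm39, with no versions, strand setting or order. Symbols, models and coordinates came from GENCODE M39 (GRCm39), which held 78168 of the 78298 identifiers; the rest took 0.143% of counts. The deposited length equalled the GENCODE exon length for 58 of the 67 genes.

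The genes, lists and tests were chosen with earlier results of these data known. R 4.3.3 with edgeR 4.0.16 was used: filterByExpr (minimum count 10), TMM, a coefficient per group over 12 libraries, and the robust quasi-likelihood F-test (two-sided; p-values adjusted by Benjamini-Hochberg across 22190 genes), which was tested on simulated data. A standard error is the log2 fold change over the square root of F. DESeq2 1.42.0 was an alternative. Genes named with values are the 3 with the highest CPM per kilobase in each class, up to 3 called in each direction per comparison, any called against the rest, and the tested ones above 1000 bases. H2ac13, H2bc15, H2bc27, H2bc3, H4c2, H4c11 and H4c17 were added after their values were seen. Stem-loops were searched as matches to a fixed 16-base pattern of the conserved form, with some bases free to vary, within 300 bases after each annotated stop codon. Pairing of the stem was not checked.

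Library-name prefixes join 1 normal and 1 tumour library each, but 2 of the 6 prefixes join different treatments, so labels were kept and no pairing entered the main test. Alternatives were DESeq2 size factors, scaling to library size, no filter, the Wald test, blocks for replicate number or prefix, removal of the 4 conflicting libraries, leaving out each library and, chosen after seeing the data, halved counts and GENCODE lengths.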

Additional observations from a re-analysis of the deposited data

Results flagged for a closer look

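H2bc3, a core H2B gene that did not pass the filter on low counts, moved in opposite directions under HDM in the 2 tissues, with no overlap in either once counts were scaled. In normal lung it had 1, 2 and 0 counts under VEH and 4, 6 and 14 under HDM, a ratio of pooled levels of 8.19 with a 95% interval of 2.49 to 42.5. In tumours it had 8, 23 and 6 counts under VEH and 0, 7 and 4 under HDM, a ratio of 0.247 with an interval of 0.114 to 0.496. The raw counts in tumours overlap, but as CPM they were 0.340, 0.855 and 0.277 under VEH and 0, 0.239 and 0.121 under HDM. In normal lung the scaled values were 0.0411, 0.0629 and 0 CPM under VEH and 0.164, 0.227 and 0.516 under HDM. The ratio in normal lung rests on 3 counts under VEH. The intervals cover counting error only, and the difference between tissues was not tested. H2bc3 overlaps H3c3 by 28 bases on the other strand.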

How the results depend on the processing

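Calls were few and mostly near the threshold, so their number moved with the processing; the cause was not tested unless named. Genes called higher in tumours under VEH numbered 2, and 5 with scaling to library size, 4 with no filter, 6 by DESeq2's Wald test, 1 with halved counts, 1 with a block for prefix, 1 without the 4 libraries of conflicting prefixes, and 1 to 7 when a library was left out, with 7 without tumour HDM replicate 3. Lower under VEH were 0, 1 by the Wald test (H4c8) and 0 to 1 with a library left out. Under HDM, 4 were higher, 1 with the prefix block, 1 without the conflicting libraries (fewer samples) and 1 to 5 with a library left out; 1 was lower, 2 by the Wald test and 1 to 2 with a library left out. In tumours under HDM against VEH, 0 were lower and 1 by the Wald test. With a replicate block, 2 genes were higher and 2 lower under HDM, and 3 higher under VEH. Correlations of deviations from group means were -0.30 to 0.16 for same-numbered libraries and -0.22 to 0.18 for same-prefix ones. The 2 ranges are alike, so they cannot show which libraries are paired. H2ac8 under VEH and H4c8 under HDM were called in every such fit listed here. Mean summed levels stayed within 1 SD. No result changed sign where it was called.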
